A study of Mus musculus with 16 samples.

Results

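The genes described here are 35 genes of the T cell receptor (TCR) complex and of T cell identity, followed in splenic B cells and tumors of mice that carry an XBP-1s transgene. They were listed by name, and a gene was taken from the probe sets for which the platform annotation gives that 1 symbol alone, which yielded 33 of the 35 genes and 63 of 45101 probe sets. The series as a whole names 18194 genes. Lck and Tcf7 have no such probe set and were not analysed here. Each gene is shown by its probe set of highest mean over the 16 arrays, which was the sole probe set for 18 genes and 1 of several for 15.

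The arrays fall into 3 groups. Nontransgenic B cells (n = 5) and Eμ-xbp-1s B cells (n = 5) were B220+ splenic cells taken with magnetic beads from mice at 20 weeks of age, and Eμ-xbp-1s MM (n = 6) were myeloma tumors of transgenic mice, for which no sort and no age per tumor are stated. MM arose in this colony in mice much older than the B cell donors, so tumor and age cannot be told apart in the comparisons of MM. The transgene holds the spliced mouse XBP-1 reading frame and an eGFP reporter behind the immunoglobulin VH promoter and the Eμ enhancer, on a C57BL/6 background, in lines of a pair of founders, S.7 and S.9. Eμ elements act through B cell development and also in some T cells. Xbp1 itself ran from 1802 to 2452 on the nontransgenic and from 2040.2 to 3108 on the Eμ-xbp-1s B cell arrays, and its limma fold change was 0.32 on the log2 scale (adjusted p = 0.258). In B220+ B cells of younger transgenic mice, the paper found more spliced mRNA by RT-PCR and more XBP-1s protein by western blot. Whether the Xbp1 probe set detects the transgene mRNA was not tested.

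The TCR recognises peptides bound to major histocompatibility proteins, and its signal is passed on by the CD3 chains and the zeta chain, whose cytoplasmic motifs are phosphorylated by Lck and bound by the kinase Zap70. The adaptor Lat then assembles the enzymes that lead to gene activation. CD4 and CD8 are coreceptors that divide mature T cells into helper and cytotoxic lineages, and a small set of transcription factors, among them Tcf7, Lef1, Bcl11b and Gata3, establishes T cell identity in the thymus. Resting splenic B cells do not use these receptor chains, whereas they share downstream parts of antigen receptor signalling with T cells.

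The genes for the gamma, delta and epsilon chains of CD3 are neighbours on mouse chromosome 9, Cd3g and Cd3d starting 1355 bases apart, and the sequences before their starts are shown because these genes encode the signalling chains on which the results below turn. They are the 250 bases upstream of the annotated start, from RefSeq (GRCm38.p6), and 26 of the 35 genes had such a sequence, 41 sequences in all. Capitals mark letters that match AGGAAG (the core bound by ETS factors), TGTGGT (bound by RUNX factors), AGATAA (for GATA factors) or CTTTGA (for TCF/LEF factors) on either strand. The windows are chr9:44981536-44981785 for Cd3d (plus strand), chr9:45009612-45009861 for Cd3e (minus strand), chr9:44980432-44980681 for Cd3g (minus strand) and chr1:165788431-165788680 for Cd247 (plus strand), the zeta chain, which lies apart from the others.
Cd3d: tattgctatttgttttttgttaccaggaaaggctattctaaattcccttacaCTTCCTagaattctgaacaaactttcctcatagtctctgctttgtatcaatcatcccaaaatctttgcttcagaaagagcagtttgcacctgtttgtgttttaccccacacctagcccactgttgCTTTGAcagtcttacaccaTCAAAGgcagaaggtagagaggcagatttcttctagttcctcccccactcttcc
Cd3e: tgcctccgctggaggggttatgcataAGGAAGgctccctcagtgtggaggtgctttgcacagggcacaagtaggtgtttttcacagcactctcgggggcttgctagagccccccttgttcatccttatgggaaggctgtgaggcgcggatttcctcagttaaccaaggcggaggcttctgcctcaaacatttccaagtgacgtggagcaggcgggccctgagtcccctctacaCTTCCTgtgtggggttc
Cd3g: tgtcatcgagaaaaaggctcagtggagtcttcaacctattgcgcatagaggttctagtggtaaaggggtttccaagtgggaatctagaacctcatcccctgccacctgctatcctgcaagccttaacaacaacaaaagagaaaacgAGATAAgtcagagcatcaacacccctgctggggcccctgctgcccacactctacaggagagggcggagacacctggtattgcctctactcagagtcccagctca
Cd247: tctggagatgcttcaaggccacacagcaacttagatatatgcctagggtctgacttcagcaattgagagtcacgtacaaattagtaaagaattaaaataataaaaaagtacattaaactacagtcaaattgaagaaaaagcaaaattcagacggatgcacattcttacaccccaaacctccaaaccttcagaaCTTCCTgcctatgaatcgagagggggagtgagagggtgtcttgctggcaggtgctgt
AGGAAG occurred in 43.9% of the 41 sequences and in 29.5% of all 32817 sequences of this length, TGTGGT in 14.6% and 14.0%, AGATAA in 7.32% and 9.99%, and CTTTGA in 14.6% and 13.8%. The E-box CANNTG, which is not capitalised, occurred in 65.9% and 66.2%. A match is a description of letters and not of a bound site.

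The values are intensities on a linear scale, 1 per probe set and array. A difference was tested with limma on log2 intensities after values under 50 were set to 50, over those probe sets that exceeded 100 on over 20% of the arrays in question, and was called at a Benjamini-Hochberg adjusted p under 0.01. Where most arrays of the lower group lay at or under 50, the fold change is a lower bound and is written as at least that size. The study describes the B cell samples as separate mice. For the MM samples the labels give numbers alone, and the spread between them may be technical. Arrays 1 and 2 stood apart from arrays 3 to 5 in both B cell groups, and Eμ-xbp-1s B cell replicates 1 and 2 were the closest of any pair in their group, with a standard deviation of 0.151 for their log2 differences against 0.316 to 0.617 for the other pairs. MM arrays differed from each other by up to 0.826 on that measure. MM replicates 1, 2 and 3 were close to each other, at 0.26 to 0.365, against 0.511 to 0.826 for the other MM pairs. Whether these 3 are independent tumors is not stated. The comparisons of MM share a control group with the first comparison and are not independent of it.

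Eμ-xbp-1s B cells had higher levels of most T cell genes than nontransgenic B cells. Of the 33 genes, 30 were tested, 19 rose (63.3%), none fell and 11 did not pass, against 2.75% of all 20596 tested probe sets that rose and 0.481% that fell. The folds of the 19 ran from 2.09 to 20.3. The arrays of the groups did not overlap for 21 of the 30 tested genes, in each case with Eμ-xbp-1s B cells above, where 5.6% of all probe sets tested did so with this group above and 3.37% with it below. The median log2 fold change of the 30 was 1.47, beside -0.05 over all probe sets tested. At an unadjusted p under 0.05, a cutoff at which the share of all probe sets was not counted, 27 of the 30 were higher and 0 lower. These counts are no independent evidence of a direction, since 14 of the 30 had no nontransgenic array above 100 and so entered the test through Eμ-xbp-1s arrays. Without the filter on low values all 33 were tested and 17 rose, beside 374 of 45037 probe sets.

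All 4 signalling chains of the receptor rose. Cd3d, the delta chain, was at 58.3, 63.8, 57.8, 81.1 and 80.4 on the 5 nontransgenic arrays and at 1496, 1370.4, 968, 1079 and 982 on the 5 Eμ-xbp-1s B cell arrays. The groups were far apart, with a 17.2-fold difference (log2 fold change 4.10, standard error 0.17, limma adjusted p = 5.89e-08). Cd3g, the gamma chain, lay at 48.2, 50.8, 66.9, 80.2 and 73.0 against 997, 936, 452, 755 and 867, again without overlap (log2 fold change 3.62, standard error 0.22, limma adjusted p = 9.44e-07), and its call was lost with all 3 groups in a single fit (adjusted p = 0.0133). Cd3e, the epsilon chain needed for assembly of every TCR, was at 111, 118, 127, 98.9 and 153 in nontransgenic and reached 768, 751, 804, 888 and 892 in Eμ-xbp-1s B cells (log2 fold change 2.77, standard error 0.14, limma adjusted p = 1.87e-07). Cd247, the zeta chain, lay under 50 on every nontransgenic array, at 33.0, 31.5, 34.8, 23.1 and 35.9, and at 897, 627, 448, 605 and 449 in Eμ-xbp-1s B cells, a difference of at least 11.7-fold (log2 at least 3.55, adjusted p = 2.48e-07 in limma). Of the 4 probe sets of Cd247, this was the only 1 tested. On the others the groups overlapped, with means of 98.1, 45.1 and 17.5 in nontransgenic and 72.6, 106 and 29.5 in Eμ-xbp-1s B cells. On the brightest probe sets of the 4 chains, no nontransgenic array reached the lowest Eμ-xbp-1s array. The log2 fold changes of the 4 chains lay between 2.73 and 4.55 within replicates 1 and 2 and between 2.79 and 3.80 within replicates 3 to 5 of both groups.

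The coreceptors of both T cell lineages rose. Cd4 was at 211, 197, 155, 154 and 135 in nontransgenic and at 528, 411, 369, 329 and 287 in Eμ-xbp-1s B cells (log2 fold change 1.16, standard error 0.19, limma adjusted p = 0.00216). Cd8a, the alpha chain of CD8, was at 178, 207, 151, 196 and 190.2 and 499, 463, 327, 286 and 385 (log2 fold change 1.07, standard error 0.17, limma adjusted p = 0.00214), and all 3 of its tested probe sets rose. Cd8b1, the beta chain and the more restricted to the TCR alpha-beta lineage, was at 23.2, 24.6, 23.5, 31.7 and 53.5 and 779.6, 652, 449, 630.4 and 831, at least 12.9-fold apart (log2 at least 3.69, adjusted p = 7.87e-08 in limma). The groups did not overlap for any of the 3. The call of Cd4 was lost without the filter on low values (adjusted p = 0.017), with all 3 groups in a single fit (0.0353) and with the mean of its probe sets (0.0114), and that of Cd8a without the filter (0.0143), in the single fit (0.0739) and within replicates 3 to 5 (0.0172), all from limma.

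**Figure D1:**
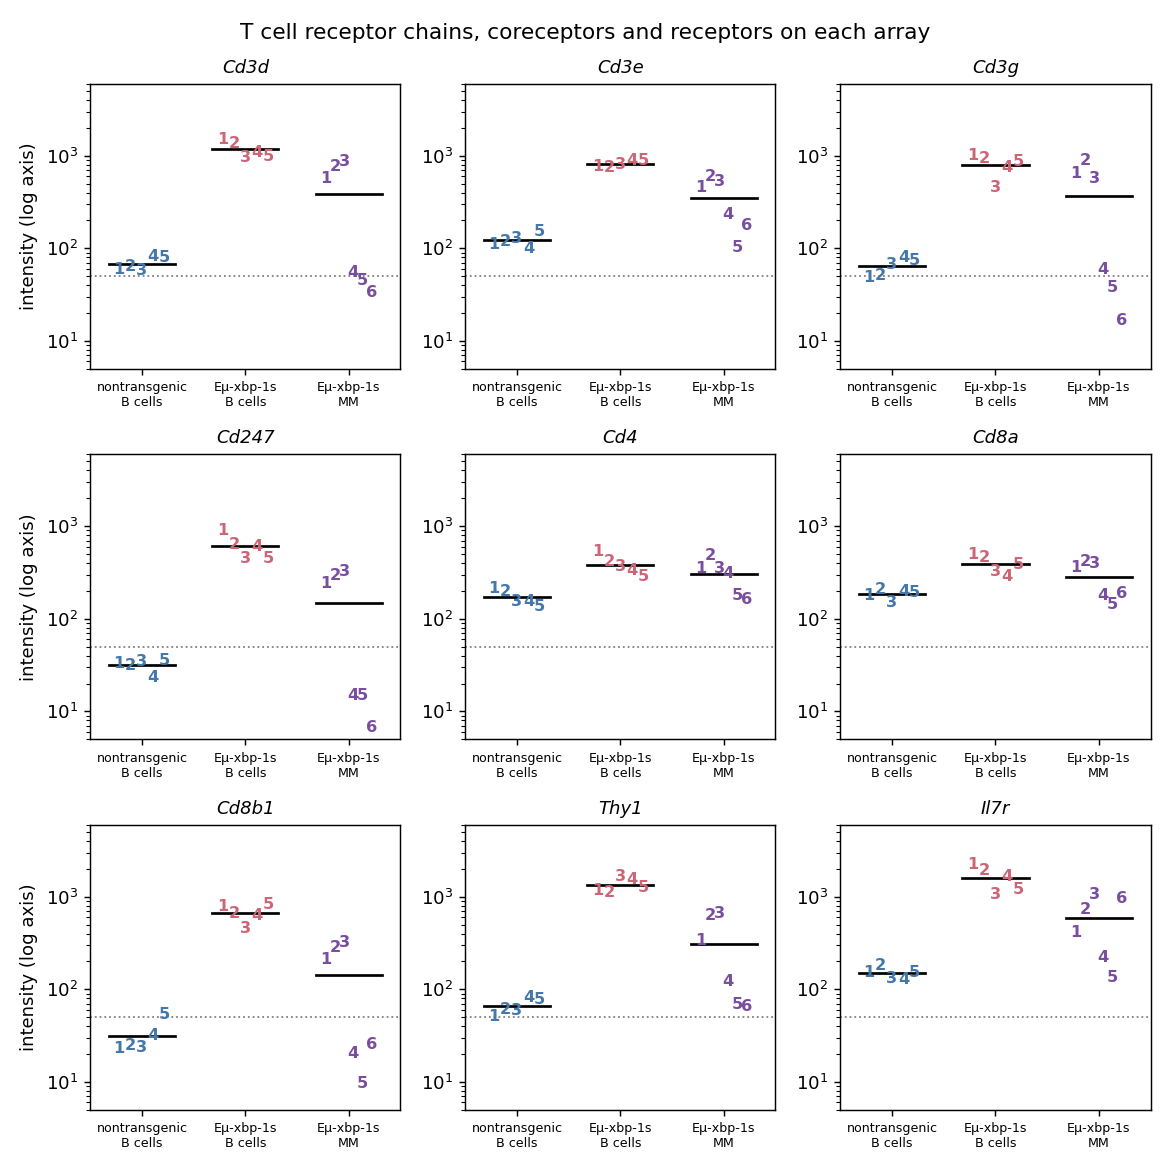
Intensity (log axis, linear units) of the 4 CD3 and zeta chains, the coreceptors, Thy1 and Il7r on each array, with the replicate number as the symbol, the group mean as a bar and the floor of 50 as a dotted line. Every Eμ-xbp-1s B cell array lies above every nontransgenic array, and MM replicates 1 to 3 lie above MM replicates 4 to 6 for all 9 genes but Il7r, where MM replicate 6 is at 958.

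Of the 12 surface receptors, 11 were tested and 7 rose. Thy1, the glycoprotein carried by all mouse T cells, rose from 51.2, 60.8, 58.6, 82.1 and 78.2 to 1158, 1119, 1656, 1516 and 1247 (log2 fold change 4.34, standard error 0.17, limma adjusted p = 5.89e-08). Il7r, the receptor for the survival cytokine IL-7, rose from 151, 180.5, 132, 129 and 154 to 2203, 1902, 1044, 1641 and 1205 (log2 fold change 3.38, standard error 0.20, limma adjusted p = 7.72e-07). Ms4a4b, a membrane protein of T cells, was at 3282, 2938, 2844, 2761 and 2797 on Eμ-xbp-1s B cell arrays, against 244, 289, 407, 444 and 304 in nontransgenic B cells (log2 fold change 3.15, standard error 0.17, limma adjusted p = 3.39e-07), and did not pass in the single fit (adjusted p = 0.0679). The other probe set of Ms4a4b overlapped and did not pass (log2 at least 0.14, limma adjusted p = 0.843). On the brightest probe sets of Thy1, Il7r and Ms4a4b, too, no array of one group reached the other. Cd5, a negative regulator of TCR signalling, rose 7.76-fold and its relative Cd6, the next gene on chromosome 19 in the RefSeq order, at least 3.75-fold. Cd96, an adhesion receptor of T and NK cells, rose 3.42-fold and the costimulatory receptor Cd27 2.21-fold. The limma adjusted p of these 4 ran from 9.02e-07 to 0.00057, and that of Cd27 was 0.0134 within replicates 3 to 5.

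The other surface receptors did not pass on their brightest probe set. Cd2, an adhesion molecule that mouse B cells carry as well, was at 1074, 912, 1068, 1114 and 1099 in nontransgenic and 1227, 1137, 836, 983 and 891 in Eμ-xbp-1s B cells, and the groups overlapped (log2 fold change -0.07, standard error 0.14, limma adjusted p = 0.845). Ctla4, the inhibitory receptor of activated T cells, had means of 92.7 and 187 (log2 fold change 0.94, standard error 0.26, limma adjusted p = 0.0493). It passed in limma with the replicate number as a block (adjusted p = 0.00626), though the numbers are not established as pairs. Icos, the inducible costimulator that follows Cd28 and Ctla4 in gene order on chromosome 1, differed by 0.61 on the log2 scale (adjusted p = 0.0483) and Trat1, which associates with the TCR, by 0.55 (adjusted p = 0.0546), both from limma. Il2ra, the high-affinity IL-2 receptor chain, lay between 29.3 and 64.4 in nontransgenic and 52.5 and 78.9 in Eμ-xbp-1s B cells, too low to be tested.

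Among kinases and adaptors, 9 of 10 had a probe set, all 9 were tested and 4 rose. Lat, the scaffold below Zap70, was at 79.5, 102, 131, 129 and 102 in nontransgenic and at 1309, 1215, 1121, 980.2 and 735 in Eμ-xbp-1s B cells (log2 fold change 3.30, standard error 0.19, limma adjusted p = 4.86e-07). Themis, which tunes TCR signals in thymic selection, rose 3.88-fold, the adaptor Skap1 2.45-fold and Sh2d1a, the SAP adaptor of SLAM receptors, at least 2.69-fold, with limma adjusted p from 1.05e-05 to 0.000617. Skap1 did not pass in the single fit (adjusted p = 0.0248) or with the mean of its probe sets (adjusted p = 0.0104). Sh2d1a lay at 10.6, 14.6, 12.8, 8.95 and 16.4 on nontransgenic arrays and at 121, 108, 116, 161 and 179.7 on Eμ-xbp-1s B cell arrays, so that its call depended on the floor and was lost at a floor of 100 (adjusted p = 0.111). Txk, a Tec family kinase, was at 37.8, 45.6, 32.9, 45.7 and 33.5 and 253, 216, 63.0, 109 and 157. Its groups did not overlap, its limma adjusted p was 0.0115, and with the replicate block it passed (adjusted p = 0.00842).

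Ubash3a, a suppressor of TCR signalling, had means of 34.5 and 95.2 (adjusted p = 0.14 in limma), and Sh2d2a, an Lck-binding adaptor, of 292 and 264 (adjusted p = 0.687). Ptpn22, a phosphatase that restrains both T and B cell receptors, was at 1108, 2266, 453, 539 and 558 on nontransgenic arrays and 2442, 2082, 1072, 1417 and 1232 on Eμ-xbp-1s B cell arrays. Replicates 1 and 2 were the highest in both groups, and the limma log2 fold change of 0.96 (adjusted p = 0.218) became 1.26 (adjusted p = 0.00312) within replicates 3 to 5.

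Of the transcription factors, 5 of 6 had a probe set and 3 were tested. Lef1, which acts with Tcf7 in early T cell development, was at 51.5, 76.9, 48.0, 47.3 and 45.7 in nontransgenic and 483, 415, 346, 669.8 and 508 in Eμ-xbp-1s B cells, a rise of at least 8.62-fold (log2 at least 3.11, adjusted p = 8.82e-07 in limma), on both of its tested probe sets. Satb1, a chromatin organiser of thymocytes that these B cells also expressed, was at 1150.1, 1120.3, 924, 916 and 886 and 1645, 1342, 860.2, 1520.2 and 1422 and overlapped (log2 fold change 0.42, standard error 0.18, limma adjusted p = 0.214). Gata3, the factor of helper T cells, was not tested because 2 of the 10 arrays were above 100, which is not more than 20%. Its arrays did not overlap, at 5.91, 22.5, 28.5, 14.6 and 16.2 against 76.3, 78.2, 99.8, 101 and 136. Foxp3, the factor of regulatory T cells, stayed between 39.6 and 67.0 and between 58.2 and 98.5 in the same groups, with overlap, and was not tested.

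**Figure D2:**
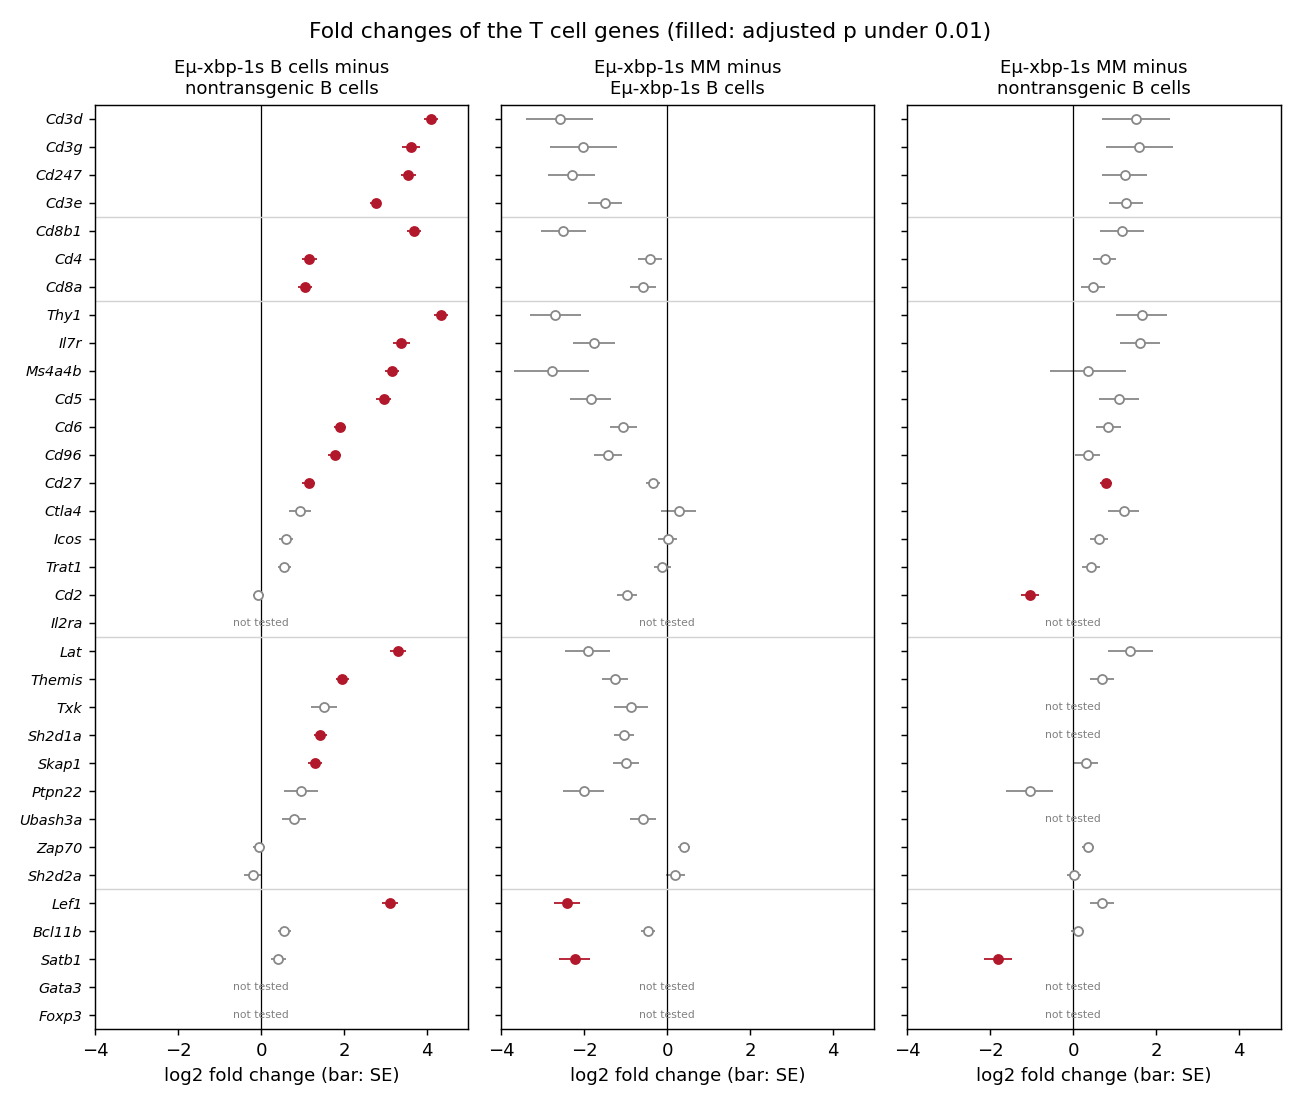
Log2 fold changes (points) with standard errors (bars) from limma for the 33 T cell genes in the 3 comparisons, ordered by role from CD3 chains at the top to transcription factors at the bottom. Filled points passed an adjusted p under 0.01, 19 in the left panel, 2 in the middle panel and 3 in the right panel, and the bars are wider in the comparisons of MM.

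For 4 of the 11 genes that did not pass, Zap70, Bcl11b, Icos and Trat1, another probe set of the same gene rose. With these, 23 of the 33 genes had at least 1 probe set that rose. Of 48 tested probe sets 32 rose (66.7%), against 2.75% of all tested probe sets. The probe sets that rose for the 4 genes had no nontransgenic array above 100 and entered the test through Eμ-xbp-1s arrays. These counts are therefore no independent evidence of a direction. The brightest probe set of Zap70 lay at 292, 276, 231, 229 and 197 in nontransgenic and 241, 267, 254, 194 and 224 in Eμ-xbp-1s B cells, with overlap, whereas the next lay at 33.5, 44.8, 36.7, 49.6 and 36.6 and 282, 263, 310.5, 342 and 298, at least 5.96-fold apart (adjusted p = 7.21e-08 in limma). The remaining probe set of Zap70 rose at least 5.21-fold. Averaged over its probe sets, the log2 fold change of Zap70 was 1.64 (limma adjusted p = 9.73e-07) in place of -0.05.

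Bcl11b, the factor that commits thymocytes to the T lineage, had means of 233 and 342 on its brightest probe set (log2 fold change 0.56, standard error 0.15, limma adjusted p = 0.0405). The next probe set, of nearly the same overall mean, lay at 21.4, 37.7, 23.3, 17.5 and 36.6 in nontransgenic and 576, 549, 736, 809 and 521 in Eμ-xbp-1s B cells, at least 12.6-fold apart (adjusted p = 5.89e-08). In all, 3 of 4 probe sets of Bcl11b rose, 2 of 3 of Icos (at least 5.03-fold and 4.06-fold) and 1 of 2 of Trat1 (at least 2.04-fold). For the 4 genes, the brightest probe set was above 50 on every nontransgenic array, whereas the probe sets that rose were at or near the floor there. Whether the brightest probe sets of these genes bind other transcripts was not tested.

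**Figure D3:**
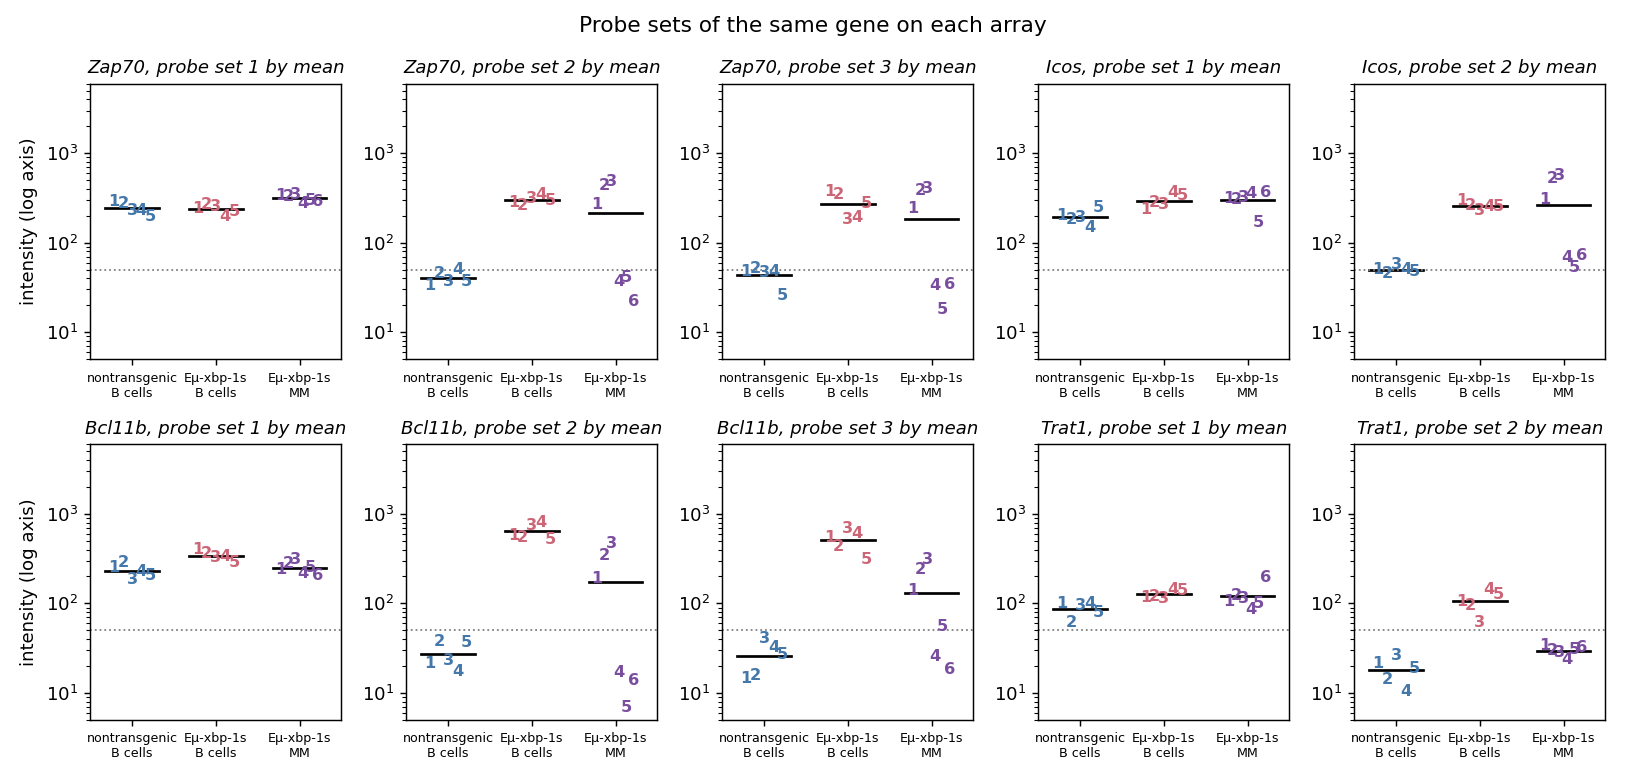
Intensity (log axis, linear units) on each array of 10 probe sets of Zap70, Icos, Bcl11b and Trat1, numbered by their mean over the 16 arrays, with replicate numbers as symbols, group means as bars and the floor of 50 as a dotted line. The brightest probe set of each gene differs by at most 0.61 (log2) between the B cell groups, while the others rise from about the floor in nontransgenic B cells to between 61.0 and 809 in Eμ-xbp-1s B cells.

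Genes outside the list were counted in the same way, beside the same 2.75% of all tested probe sets that rose and 0.481% that fell. Of 20 further T cell genes, 14 had a probe set, 11 were tested and 4 rose in Eμ-xbp-1s B cells, none falling. Cd28, the main costimulatory receptor, lay at 39.9, 37.4, 46.7, 54.3 and 41.9 against 488, 401, 338, 409 and 452, at least 8.15-fold apart. It entered the test through Eμ-xbp-1s arrays, having no nontransgenic array above 100. Prkcq, the protein kinase C of the T cell synapse, rose 5.29-fold, Tox, a nuclear factor of developing and chronically stimulated T cells, 4.19-fold, and the costimulatory receptor Tnfrsf4 1.84-fold. The TCR constant region genes were not analysed here. Of 19 antigen receptor signalling genes listed as shared with B cells, 2 rose and none fell, namely the adaptor Lcp2 (68.3 to 355) and the kinase Fyn (457 to 922). Lcp2 was on this list although it is a T and myeloid partner of Lat. The median log2 fold change of the 19 was 0.02, against 0.65 for the 11 further T cell genes.

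Genes of other cell types differed between the B cell groups as well. Of 10 tested NK cell genes 7 rose, of 8 neutrophil genes 5, of 10 macrophage genes 3 and of 2 erythroid genes 1. Over all tested probe sets 2.75% rose and 0.481% fell. Of 12 B cell genes 0 were called, and all 12 were lower at an unadjusted p under 0.05 (median log2 fold change -0.74). The share of all probe sets at that unadjusted cutoff was not counted. The summed intensity of the 10 NK genes spanned 1368 to 1812 in nontransgenic B cells and 3682 to 5992 in those with the transgene, that of the 9 neutrophil genes 796 to 1618 and 9421 to 28685, and that of the 10 macrophage genes 3169 to 5145 and 7089.6 to 14052. The 12 B cell genes summed to between 42765 and 46229 and to between 18441 and 36327. The neutrophil genes Camp and Mmp8 lay under 50 on all 5 nontransgenic arrays and could enter the test through Eμ-xbp-1s arrays alone. The erythroid gene Hba-a1 lay under 50 on all 16 arrays of the series. Some members, among them Cd2, Cd5, Cd27, Cd96, Il7r and Sh2d1a, are used by some NK or B lineage cells besides T cells, and this list is not complete. The part of these other cells in the T cell gene values was not tested. In bulk samples, a change in the number of cells of a type and a change in RNA per cell cannot be told apart.

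Among the Eμ-xbp-1s B cell arrays, the summed CD3 chains were 4158, 3684, 2672, 3326 and 3189, and the summed B cell genes were 36327, 34211, 18441, 25047 and 26639.5. Replicate 1 was the highest and replicate 3 the lowest in both sums. Replicate 1 also had the highest value for 16 of the 33 T cell genes and replicate 3 the lowest for 18. NK genes did not follow this order, at 3994, 3682, 4409, 4129.5 and 5992, with replicate 5 the highest. The summed erythroid genes were 713, 663, 8018, 929 and 1489, with replicate 3 the highest. The summed macrophage genes were 13129, 11704, 7089.6, 11927 and 14052, with replicate 3 the lowest and replicate 5 the highest.

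**Figure D4:**
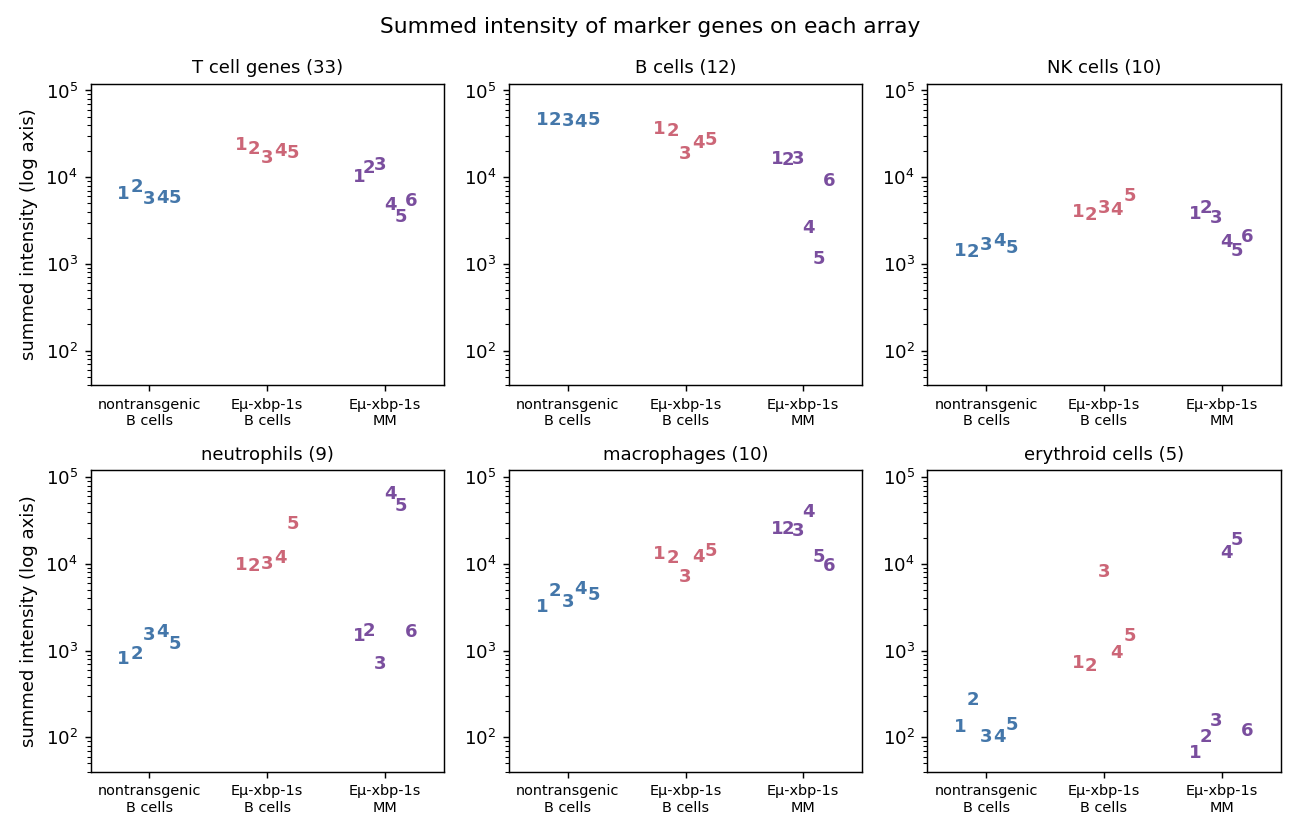
Summed intensity (log axis, linear units) on each array of the 33 T cell genes and of marker genes of B cells, NK cells, neutrophils, macrophages and erythroid cells, with the number of genes in brackets and replicate numbers as symbols. T cell, NK, neutrophil, macrophage and erythroid sums are higher on every Eμ-xbp-1s B cell array than on any nontransgenic array and the B cell sums lower, and MM replicates 4 and 5 carry the highest neutrophil and erythroid sums of the series.

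In MM, most T cell genes were lower than in Eμ-xbp-1s B cells, but few differences passed an adjusted p under 0.01. Of 30 tested genes none rose and 2 fell (6.67%), against 1.28% and 1.91% of 22194 tested probe sets. At an unadjusted p under 0.05, 20 were lower and 1 higher, and the share of all probe sets at that cutoff was not counted. The median log2 fold change was -1.16 beside 0.00 over all probe sets tested. The groups did not overlap for 14 genes with MM lower and for 1, the brightest probe set of Zap70, with MM higher, against 4.15% and 4.04% of all probe sets. The single fit of all 3 groups, which shares 1 estimate of spread, called 11 lower. Over all probe sets it called 1143 lower, where the main fit called 423.

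Both genes that fell were transcription factors. Lef1 lay at 33.9, 102 and 153 (lowest, median and highest) in MM, below all Eμ-xbp-1s B cell arrays, and fell 5.33-fold (log2 fold change -2.42, standard error 0.31, limma adjusted p = 0.000986). Satb1 lay at 212, 425, 742, 221, 159 and 214 on MM replicates 1 to 6, where Eμ-xbp-1s B cells had 860.2 to 1645, and fell 4.7-fold (log2 fold change -2.23, standard error 0.36, limma adjusted p = 0.00322), on 4 of its 5 probe sets. Taking the replicate number as a block ended both calls (limma adjusted p = 0.0126 and 0.0262), and leaving out any 1 of Eμ-xbp-1s replicates 1, 2, 4 and 5 ended that of Satb1. Without MM replicate 3, 7 genes fell, Cd247, Cd8b1, Ptpn22, Sh2d1a and Thy1 besides these, and without any 1 of those Eμ-xbp-1s replicates 1 gene fell. The calls over all probe sets moved too. There 423 fell in the main fit, 737 without MM replicate 3 and 136 to 198 without any 1 of those Eμ-xbp-1s replicates. On other probe sets, 1 of 4 of Bcl11b and 1 of 2 of Trat1 fell, at least 2.52-fold and 2.04-fold, and both lay at or under 50 on most MM arrays.

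The CD3 chains and coreceptors separated the tumors from each other. Cd3d was at 566, 755, 866, 54.5, 45.3 and 33.1 on MM replicates 1 to 6. Cd3g was at 645, 877, 573, 59.4, 37.7 and 16.6, and Cd247 at 238, 291, 321, 14.8, 14.9 and 6.69. On each of these, every one of replicates 1 to 3 was above every one of replicates 4 to 6, which lay within or below the nontransgenic range. Cd3e was at 451, 602, 529, 234, 102 and 178, with the same order but a smaller range. Cd8b1 was at 208, 279.8, 323, 20.3, 9.56 and 25.1 and Cd8a at 359, 421, 395, 178, 143 and 186. Cd4 was at 352, 487, 350.4, 306, 177 and 161, and its replicate 4 was near replicates 1 and 3. None of the 7 passed against Eμ-xbp-1s B cells, the nearest being Cd8b1 (log2 fold change -2.50, standard error 0.54, limma adjusted p = 0.0133).

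The highest of the 6 tumors exceeded the lowest by more than 8-fold for 11 of the 33 genes as measured, and for 6 of them, Cd3d, Cd3g, Thy1, Ms4a4b, Lat and Ptpn22, with values under 50 set to 50. Besides Cd3d, Cd3g, Cd247 and Cd8b1, the 11 were Thy1 at 338, 623, 657, 119.9, 67.9 and 65.4 on replicates 1 to 6, Ms4a4b at 1531, 1782, 2005, 181, 117 and 49.5, and Lat at 526, 614, 658, 202, 172 and 62.9. All 3 were highest on replicates 1 to 3. Sh2d1a was at 82.6, 81.1, 93.0, 10.8, 5.13 and 23.8, Txk at 95.0, 129, 144, 35.9, 19.1 and 11.6 and Gata3 at 56.4, 55.1, 88.9, 9.27, 18.7 and 24.0. Replicates 4 to 6 were under 50 for all 3. Ptpn22 was at 451, 685, 1076, 389, 104 and 263, replicate 5 being the lowest.

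Counted over all 33 genes, MM replicates 1, 2 and 3 lay above the whole nontransgenic range for 26, 26 and 28 genes, and replicates 4, 5 and 6 for 9, 6 and 13. Below the Eμ-xbp-1s B cell range lay 23, 21 and 16 genes on replicates 1 to 3 and 25, 28 and 27 on replicates 4 to 6. Replicate 3 had the highest MM value for 21 genes, and replicates 5 and 6 the lowest for 14 and 11.

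Some genes did not follow this order. Il7r, at 408, 719, 1057, 223, 134 and 958, was nearly as high on replicate 6 as on replicate 3, and its other probe set was at 232, 489, 865, 45.0, 14.9 and 435. IL-7 receptor is also a receptor of early B lineage cells. Trat1 stood at 196 on replicate 6 against 86.4 to 123 on the others, though its other probe set stayed under 50 on all MM arrays. Ctla4 was at 261, 354, 382, 238, 162 and 68.8, with replicate 4 close to replicate 1. The other Icos probe sets did follow the order, at 306, 519, 567, 68.2, 53.0 and 71.0 and 219.6, 326, 379, 42.0, 54.5 and 38.6. On both, replicates 2 and 3 were above every Eμ-xbp-1s B cell array. Among genes outside the list, Tox, chosen after its values were seen, followed the order too, at 763, 1067, 992, 31.8, 10.5 and 40.8. Its replicates 1 to 3 were above the 209 to 332 of Eμ-xbp-1s B cells and replicates 4 to 6 below them. Pdcd1, the inhibitory receptor PD-1, likewise chosen, also followed it, at 129, 194, 197, 48.6, 23.3 and 9.60. Of the 12 further T cell genes tested, Prkcq alone fell (2.35-fold, adjusted p = 0.00925 in limma), and none of the 19 shared signalling genes was called. Of all tested probe sets 1.91% fell.

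**Figure D5:**
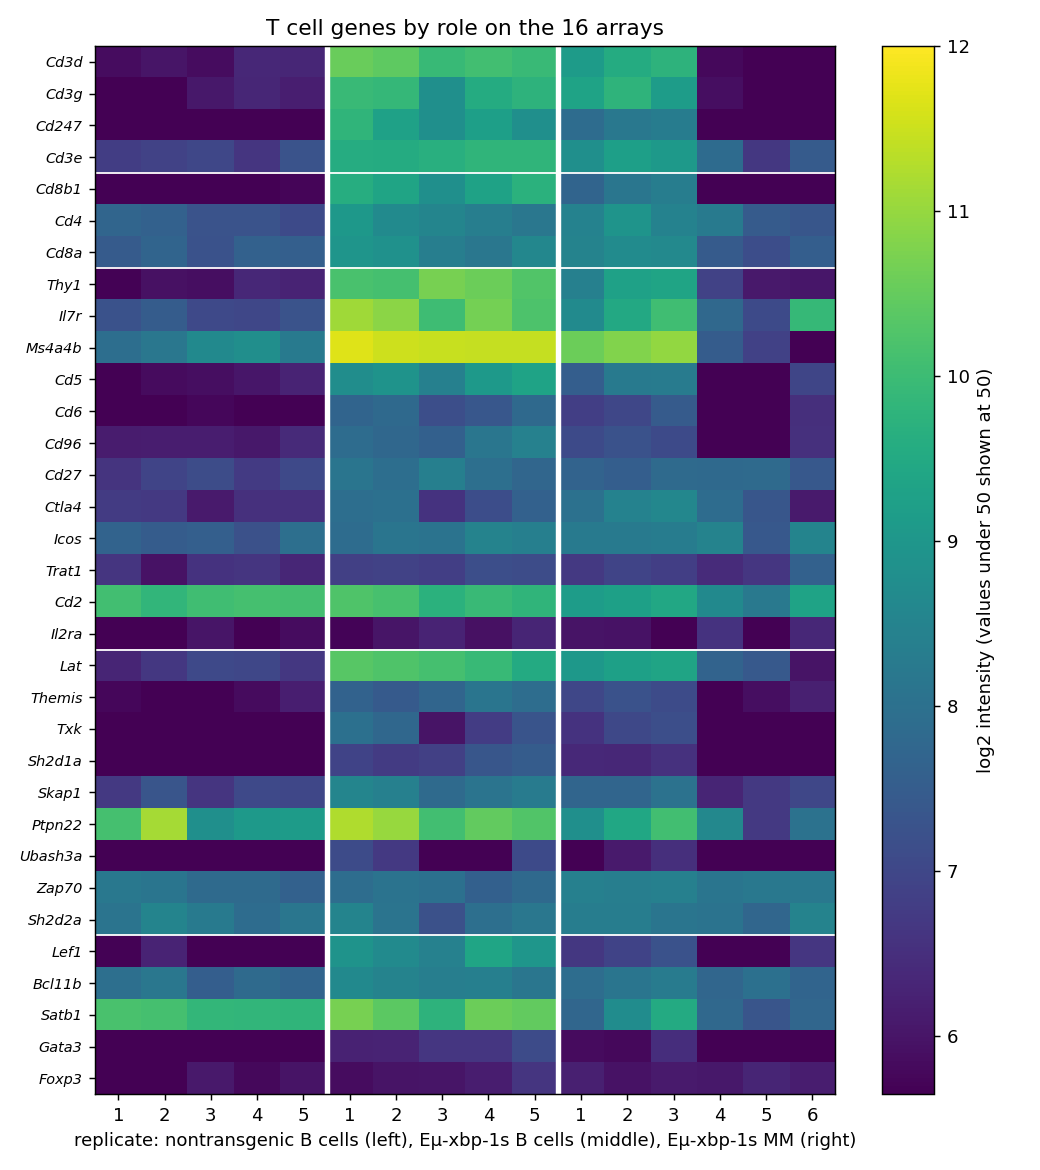
Log2 intensity of the 33 T cell genes (rows, by role, in the order of the fold change plot) on the 16 arrays (columns), with values under 50 shown at 50. The middle block of Eμ-xbp-1s B cells is the brightest, and in the right block MM replicates 1 to 3 keep intermediate levels while replicates 4 to 6 all lie under 50 for Cd247, Cd8b1, Txk, Ubash3a, Sh2d1a and Gata3, with Cd2, Cd27, Icos, Zap70 and Sh2d2a above 100 on all MM arrays.

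Markers of other cells also differed between the tumors. The summed neutrophil genes were 1478, 1665, 706, 63256, 47043 and 1619.9 on MM replicates 1 to 6 and the summed erythroid genes 65.3, 101, 155, 13543, 18731 and 119, so that replicates 4 and 5 were high in both and replicate 6 was not, while all 3 were low in CD3 chains. The summed B cell genes were 16418, 15600.0, 15994, 2592, 1130.2 and 9082, and the NK genes 3741, 4384, 3394, 1788, 1403 and 2045. Replicates 1 to 3 were the highest in both. Sdc1, the CD138 marker of plasma cells, ran from 110.3 to 264 on MM and from 141 to 246 on nontransgenic arrays, so that MM did not stand above for this gene. The 6 plasma cell genes, Sdc1 among them, summed to 7302, 10042, 12335, 13517, 3420 and 4181 on MM replicates 1 to 6. On nontransgenic arrays they summed to between 7823 and 9552, so that MM replicates 2, 3 and 4 were above and the others below. The part of these cells in the T cell gene values of MM was not tested, and without replicates 4 and 5 the number of T cell genes that fell against Eμ-xbp-1s B cells was 1.

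Against nontransgenic B cells, MM had 1 T cell gene higher and 2 lower among 27 tested (3.7% and 7.41%), beside 3.95% and 5.65% of 21894 tested probe sets, shares close to the background. The groups did not overlap for 1 gene with MM higher and for 2 with MM lower, where 6.59% and 9.55% of all probe sets did so. At an unadjusted p under 0.05, 15 were higher and 2 lower. The share of all probe sets at that cutoff was not counted, so these 2 counts have no background beside them. The median log2 fold change was 0.70, beside -0.03 over all probe sets tested. Cd27, which some B lineage cells carry besides T cells, rose from 97.2, 123, 138, 106 and 132 to 204, 187, 228, 224, 229 and 169 (log2 fold change 0.80, standard error 0.15, limma adjusted p = 0.00298), and it varied less between tumors than most of these genes. Cd2 fell to 571, 612, 696, 402, 294 and 639 (log2 fold change -1.03, standard error 0.22, limma adjusted p = 0.00614), below all 5 nontransgenic arrays. Satb1 fell 3.52-fold (log2 fold change -1.81, standard error 0.34, limma adjusted p = 0.00339), on 3 of 5 probe sets. Each of the 3 calls was lost when some single array was left out, Cd27 without nontransgenic replicate 1 or 4, Cd2 without MM replicate 1 or 4 or any nontransgenic array, and Satb1 without nontransgenic replicate 1 or 2. Taking the replicate number as a block ended the calls of Cd2 and Satb1 and added Ctla4 (limma adjusted p = 0.00545). MM replicate 6 has no nontransgenic array of its number, so the block takes it out of the group difference. The log2 fold change of Ctla4 was 1.544 under the block and 1.544 without MM replicate 6. Without MM replicate 5, 4 genes rose, and without MM replicate 6, 3. Without MM replicates 4 and 5, 7 genes rose, namely Cd3e, Cd5, Cd6, Cd96, Il7r, Lef1 and Themis, and Cd2 alone fell. Over all probe sets 864 rose in the main fit and 863 without MM replicate 5. That number was 1335 without MM replicate 6 and 898 without MM replicates 4 and 5.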

How the data were processed

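Total RNA was measured on Affymetrix 430 2.0 mouse arrays, 1 per sample. The deposited table gives 1 linear intensity per probe set and sample. To obtain it, the authors scaled every array to a baseline array of median brightness in dChip and fitted its expression model to the perfect match and mismatch signals. Such values carry no read depth, and the number of arrays limits the precision. Tests covered 45037 probe sets, since 64 are array controls. Of 45101 probe sets, 34958 have 1 gene in the platform annotation, of which 34754 were matched by gene identifier, 932 have several and 9211 are not named here. Values under 50 were set to 50, and the log2 values of each comparison were fitted separately by lmFit and eBayes of limma 3.58.1 (R 4.3.3). Python 3.11.15 was used with numpy 2.4.6 and pandas 2.3.3 for tables and matplotlib 3.10.9 for plots. Groups and replicate numbers came from the labels.

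The members and the other gene lists were chosen with earlier results of these data known. All members are named, with values on every array for CD3 chains, coreceptors and members spread over 8-fold in MM as measured, and for other genes where a result turns on them. The test was tested on simulated data. Arrays of the B cell groups that carry the same number deviated together (correlations 0.512, 0.527, 0.218, 0.176 and 0.512 over probe sets). The best match of Eμ-xbp-1s replicates 1 to 5 was nontransgenic replicate 2, 2, 3, 3 and 3. This follows the split of arrays 1 and 2 from arrays 3 to 5 and does not establish pairs. The replicate block is given as an alternative fit alone. The alternatives tried are given with their effects in the closing section.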

Additional observations from a re-analysis of the deposited data

Results flagged for a closer look

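Of 99 sets of values (33 genes in 3 groups), 6 had an array that stood apart from the rest of its group by Dixon's test. Chance flags about 1 in 20 such sets. Among nontransgenic B cells, Cd8b1 was at 53.5 on replicate 5 (others 23.2 to 31.7), Cd96 at 84.8 on replicate 5 (others 66.7 to 71.6), Lef1 at 76.9 on replicate 2 (others 45.7 to 51.5) and Cd2 at 911.9 on replicate 2 (others 1068 to 1114). The first 3 of these stayed below every Eμ-xbp-1s B cell array. Among MM, Trat1 was at 195.7 on replicate 6 (others 86.4 to 122.9) and Icos at 167.6 on replicate 5 (others 300.8 to 364), both on their brightest probe set.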

How the results depend on the processing

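Between the B cell groups, the number of T cell genes that rose was 19 and ran from 14 (all 3 groups in a single fit) to 23 (adjusted p under 0.05) over the alternatives, 19 to 22 with 1 array left out, 21 with the replicate block, 22 within replicates 1 and 2, 19 within replicates 3 to 5, and 19 with Eμ-xbp-1s replicates 1 and 2 averaged. The last 3 were chosen after seeing the data. None fell under any of them. Over all probe sets 567 rose, with 189 in the single fit and 1023 at an adjusted p under 0.05. That number was 651 with the replicate block, 1114 within replicates 1 and 2 and 494 within replicates 3 to 5. Of the 19, 12 passed under every alternative, and Cd27, Cd3g, Cd4, Cd8a, Ms4a4b, Sh2d1a and Skap1 each lost the call under at least 1. The log2 fold change of Zap70 turned from -0.05 to 1.64 when its probe sets were averaged.

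In MM against Eμ-xbp-1s B cells, the number that fell was 2. It was 5 at a floor of 100, 1 without the filter on low values, 8 with median scaling, 3 with quantile normalization, 11 in the single fit, 0 with the replicate block, 14 at an adjusted p under 0.05, 1 with Eμ-xbp-1s replicates 1 and 2 averaged, 1 without MM replicates 4 and 5, and 1 to 7 with 1 array left out. None rose under any of them, with limma. Over all probe sets 423 fell, with 377 at a floor of 100, 762 with median scaling and 1143 in the single fit. That number was 120 with the replicate block, 737 without MM replicate 3 and 272 without MM replicates 4 and 5. In MM against nontransgenic B cells, the number that rose was 1. It was 2 with the replicate block, 4 at an adjusted p under 0.05, 7 without MM replicates 4 and 5, and 0 to 4 with 1 array left out. Over all probe sets 864 rose, with 903 under the replicate block and 898 without MM replicates 4 and 5. The number of T cell genes that fell was 2. It was 0 without the filter, 1 with quantile normalization, 0 with the replicate block, 1 without MM replicates 4 and 5, and 0 to 2 with 1 array left out. Over all probe sets 1236 fell, with 721 without the filter, 1500 with quantile normalization and 789 with the replicate block. The MM fits without replicates 4 and 5 were chosen after seeing the data, and the causes were not tested. The replicate numbers are not established as pairs between the B cell groups. In the comparisons of MM the numbers are not established as pairs either. Deviations there correlated at -0.284 and -0.26 for replicate 3 and between 0.0308 and 0.442 for replicates 1, 2, 4 and 5. A call lost under the block there need not be a weaker effect. MM replicate 6 has no B cell array of its number, so the block takes it out of both comparisons of MM. The other alternatives were a floor of 16, a pseudocount of 50, averaging a gene's probe sets, and limma with trend and robust variance. Levels near the floor of 50 limit the folds of the dimmest genes.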
